A study of Mus musculus with 12 samples.

Results

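The 9 genes described here encode 5 STAT transcription factors (Stat2, Stat3, Stat4, Stat5a and Stat5b) and 4 members of the SOCS family of feedback inhibitors (Socs1, Socs2, Socs3 and Cish). They were listed by symbol, and each was matched to 1 row of a count table of 56691 mouse genes. All 9 had at least 30 reads in sum and were among the 15138 genes tested. Their transcripts were measured by 3′ mRNA sequencing in activated splenic CD4+ T cells from 12 mice, 3 in each of 4 antibody groups. No member differed between any pair of groups beyond the threshold used (adjusted p under 0.05). The lowest adjusted p belonged to Socs1, with levels between 5.61 and 8.04 CPM (reads of a gene scaled to a common library total) in mice given the isotype antibodies and between 12.6 and 14.2 in mice given both blocking antibodies. Socs3 was lower in all isotype mice and in 2 of 3 mice given anti-PD-L1 than in every mouse given both. It passed the threshold against anti-PD-L1 only under some alternative settings.

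All mice were Tg4 Nr4a3-Tocky Il10-GFP, male or female and typically aged 6 to 8 weeks. Their T cells carry the transgenic Tg4 receptor for myelin basic protein, a Timer protein that is made when Nr4a3 is transcribed, and a GFP reporter of Il10. Every mouse was immunized under the skin with the peptide [4Y]-MBP at 4 mg/kg, received antibodies into the peritoneum 24 h later, was re-challenged 30 min after that with 0.4 mg/kg of the same peptide in the opposite flank, and was killed after a further 12 h. The isotype group received a pool of rat IgG1 and rat IgG2a, the anti-PD-L1 and anti-Lag3 groups a single blocking antibody (0.5 mg), and the CB group the combination of both. PD-L1 is the ligand of the inhibitory receptor PD-1, and Lag3 is a second inhibitory receptor of T cells. Live CD4+ cells that lacked markers of other lineages and held both the blue and the red form of the Timer were sorted, so that only responding cells were sequenced. The sort was multiplexed in batches of 4 with a different CD4 fluorochrome for each treatment, so fluorochrome and treatment cannot be told apart. In such bulk samples, fewer cells of a type and less RNA per cell cannot be told apart either.

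Cytokine receptors carry JAK kinases, which phosphorylate STAT proteins when a cytokine binds, and the STATs then enter the nucleus as dimers and switch on genes. STAT2 serves the type I interferon receptor, STAT4 the IL-12 receptor, STAT3 the receptors of IL-6 and IL-21, and STAT5A and STAT5B the receptors of IL-2 and its relatives. The SOCS proteins are among the genes that STATs switch on, and they close the loop by blocking JAKs or receptors and by bringing a ubiquitin ligase to them. The STATs are governed mainly by phosphorylation, which sequencing of mRNA does not measure, whereas SOCS proteins are short-lived and their transcripts are often read as a record of recent cytokine signalling.

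The sequences next to the start sites were searched for letters that STAT dimers and interferon regulatory factors recognise. RefSeq promoters (GRCm38.p6, 250 bases before to 50 after each start) were at hand for 8 of the 9 members, 11 promoters in all. The form that most STAT dimers recognise, TTCNNNGAA, reads the same on both strands and was found for Cish and Socs3. A form bound by interferon regulatory factors, GAAA followed by any 2 bases and GAAA again, was searched on both strands and was found for Socs1, Stat4 and Stat2. The former occurs in 8.3% and the latter in 3.44% of all 32851 promoters of this length. The stretches were chosen after the values of the genes had been seen, each is 30 bases long and is written 5′ to 3′ on the gene's strand, and capitals mark the matched letters.
Cish (chr9:107296654-107296683, + strand): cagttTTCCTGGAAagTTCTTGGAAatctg
Socs3 (chr11:117969501-117969530, - strand): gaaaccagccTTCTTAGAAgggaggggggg
Socs1 (chr16:10785597-10785626, - strand): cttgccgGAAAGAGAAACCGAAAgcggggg
Stat4 (chr1:52008133-52008162, + strand): aatgtcttcaGAAAGTGAAAtttagaacgg
Stat2 (chr10:128270266-128270295, + strand): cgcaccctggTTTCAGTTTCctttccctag
Cish held 2 matches side by side, the first of which begins at the annotated start itself. The match of Socs3 lay 154 bases before its start. Socs1 held 2 overlapping matches from 83 bases before its start, while those of Stat4 and Stat2 began 97 and 222 bases before theirs. These starts are RefSeq starts and can differ from the ends of the gene ranges given below. The stretches of Cish, Socs3 and Stat4 lie inside those ranges. The windows of Stat3, Stat5a and Stat5b held neither form. A match is a description of the letters and does not show that a factor binds there.

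Each sample had between 16449370 and 22151025 reads on genes, with a median of 19176439, and levels are given as CPM, scaled by edgeR's TMM method. As 3′ sequencing gives a read near the end of a transcript and mapping differs between genes, levels are compared between groups for the same gene and not between genes. The 7 CD4 T cell markers summed to between 1610 and 2050 CPM in all samples, against 143 to 407 for 5 erythroid markers, 50.6 to 93.5 for 7 myeloid markers, 24.6 to 46.4 for 2 CD8 T cell markers, 7.5 to 34.3 for 4 NK cell markers and 0.0 to 3.31 for 4 platelet markers. A single gene made up most of the myeloid sum (Cst3, which is not limited to myeloid cells), of the CD8 sum (Cd8b1) and of the NK sum (Gzma). None of these markers was at 0 in all samples. All 12 samples entered 1 model with a mean for each of the 4 groups, and a gene is called where edgeR's quasi-likelihood test gave a Benjamini-Hochberg adjusted p under 0.05 over all genes tested.

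**Figure D1:**
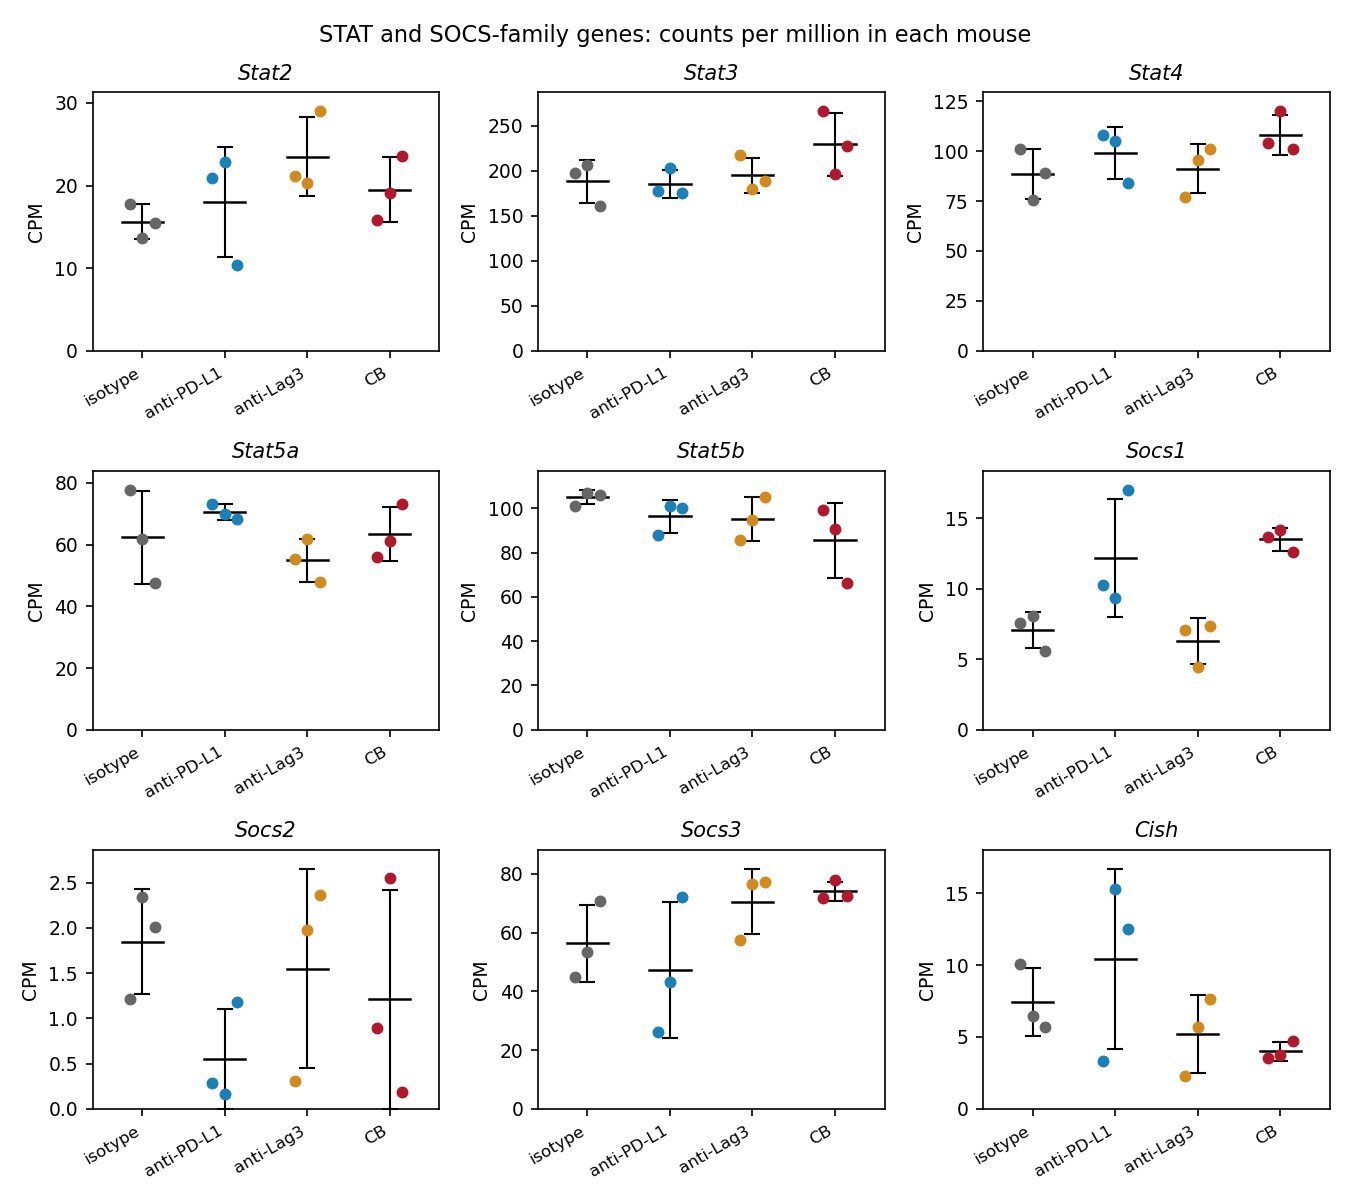
CPM (linear axis from 0) of the 9 genes in each of the 12 mice, by antibody group. Points are mice, horizontal lines are group means and bars are SD (n = 3). Socs1 lies between 12.6 and 14.2 CPM in the CB group, above the 5.61 to 8.04 CPM of the isotype group. Stat5b, Socs3 and Cish also did not overlap between these groups, and only Stat3 and Stat4 overlapped between all pairs of groups.

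Socs1, a potent inhibitor of JAK kinases and a brake on interferon-gamma and IL-2 signalling, lies on chromosome 16 from 10782240 to 10785536 (ENSMUSG00000038037, GRCm38). It stood at 7.55, 8.04 and 5.61 CPM in the 3 isotype mice and at 7.09, 4.46 and 7.35 in the anti-Lag3 mice. In the anti-PD-L1 mice it stood at 10.3, 9.37 and 17.0 CPM, and in the CB mice at 13.7, 14.2 and 12.6. Every mouse that had received anti-PD-L1, alone or in combination, thus lay above every mouse that had not. This split was noticed after the values were seen, and how many of all genes show it was not counted. In ascending order of their means the groups were anti-Lag3 (6.3 ± 1.6 CPM, SD, n = 3), isotype (7.07 ± 1.28), anti-PD-L1 (12.2 ± 4.17) and CB (13.5 ± 0.82), and only isotype and anti-PD-L1 were neighbours whose samples did not overlap. The difference between CB and isotype was 0.93 on the log2 scale (standard error 0.38, 95% interval 0.16 to 1.71) and did not pass the threshold (adjusted p = 0.206, unadjusted p = 0.0204, edgeR, quasi-likelihood test, Benjamini-Hochberg adjustment).

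The same held for the other comparisons of Socs1. Between CB and anti-Lag3 the log2 difference was 1.1 (95% interval 0.32 to 1.88, edgeR adjusted p = 0.252), and between anti-PD-L1 and isotype it was 0.79 (interval 0.02 to 1.57, edgeR adjusted p = 0.593). The single antibodies differed by 0.96 (interval 0.18 to 1.74), with an edgeR adjusted p of 0.802. CB and anti-PD-L1 differed by 0.14 with an interval from -0.63 to 0.91, and anti-Lag3 and isotype by -0.17 with an interval from -0.94 to 0.61. These last intervals reach 0.91 and -0.94, so an equal level is not shown. Socs1 had 2302 reads in all samples together, and the values of the 6 pairs are not independent, since each group enters 3 of them.

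Socs3, which binds the IL-6 receptor chain gp130 and restrains STAT3, lies on chromosome 11 from 117966079 to 117970047 (ENSMUSG00000053113). Its levels were 71.8, 77.8 and 72.4 CPM in the CB mice and 57.6, 76.6 and 77.2 in the anti-Lag3 mice. The isotype mice had 45.0, 53.3 and 70.6 CPM and the anti-PD-L1 mice 26.2, 43.3 and 72.1. The CB samples were close together and all above the isotype samples, whereas the anti-PD-L1 samples were spread from the lowest value of the experiment to the level of the CB group. From anti-PD-L1 (47.2 ± 23.2 CPM, SD, n = 3) the means went up through isotype (56.3 ± 13.1) and anti-Lag3 (70.5 ± 11.1) to CB (74.0 ± 3.29), and the samples of all neighbouring groups overlapped.

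For Socs3 the lowest p was found between CB and anti-PD-L1, with a log2 difference of 0.65 (standard error 0.23, 95% interval 0.17 to 1.12). It did not pass the threshold (unadjusted p = 0.0102, adjusted p = 0.334, edgeR, quasi-likelihood test, Benjamini-Hochberg adjustment). Whether Socs3 passed depended on the processing. With no filter on low counts the edgeR adjusted p was 0.0193. Without the third anti-PD-L1 mouse, whose 72.1 CPM was the highest of its group, the difference was 1.09 (edgeR adjusted p = 0.0287). DESeq2 did not call Socs3. Against isotype, the log2 difference was 0.39 for CB (interval -0.08 to 0.87), 0.32 for anti-Lag3 (-0.15 to 0.8) and -0.25 for anti-PD-L1 (-0.73 to 0.23). Between anti-PD-L1 and anti-Lag3 the difference was -0.58, with an interval from -1.05 to -0.1 and an edgeR adjusted p of 0.802. CB and anti-Lag3 differed by 0.07 (interval -0.41 to 0.55).

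Cish, an inhibitor of STAT5 signalling downstream of the IL-2 receptor that also restrains the T cell receptor, lies on chromosome 9 from 107296026 to 107302784 (ENSMUSG00000032578). It had few reads, 1567 in all samples and between 45 and 274 in any of them. The CB mice had 3.51, 3.75 and 4.7 CPM and the isotype mice 10.1, 6.46 and 5.72. Levels in the anti-Lag3 mice were 2.28, 5.69 and 7.62 CPM and those in the anti-PD-L1 mice 3.31, 15.3 and 12.5. All CB samples lay below all isotype samples, but 1 sample of each single-antibody group lay below all CB samples. The means were 3.99 ± 0.632 CPM in CB, 5.2 ± 2.7 in anti-Lag3, 7.43 ± 2.35 in isotype and 10.4 ± 6.27 in anti-PD-L1 (SD, n = 3), with overlap between all neighbours. The log2 difference was -0.9 between CB and isotype (interval -2.02 to 0.23, edgeR adjusted p = 0.44) and -1.38 between CB and anti-PD-L1 (interval -2.51 to -0.25, edgeR adjusted p = 0.417). The other 4 pairs of groups had edgeR adjusted p-values of at least 0.802 for Cish.

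Socs2, which is known for restraining growth hormone and STAT5 signalling, was at the limit of detection (chromosome 10 from 95385362 to 95417180, ENSMUSG00000020027). It had 298 reads in all samples, from 3 to 53 in any of them. Levels were 1.21, 2.34 and 2.01 CPM in isotype, 0.29, 0.168 and 1.18 in anti-PD-L1, 0.304, 1.98 and 2.36 in anti-Lag3 and 0.891, 2.55 and 0.184 in CB mice. Those of anti-PD-L1 lay below those of isotype, and every other pair of groups overlapped. The log2 difference between CB and isotype was -0.62 with an interval from -3.57 to 2.34.

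Among the STAT factors, Stat3 (chromosome 11 from 100885098 to 100939540, ENSMUSG00000004040) had 197, 206 and 161 CPM in isotype mice and 266, 196 and 227 in CB mice. It had 177, 203 and 175 CPM in anti-PD-L1 mice and 217, 180 and 188 in anti-Lag3 mice. The CB group held the highest value but overlapped with each of the others. Means were 185 ± 15.5 CPM in anti-PD-L1, 188 ± 23.6 in isotype, 195 ± 19.5 in anti-Lag3 and 229 ± 35.1 in CB (SD, n = 3). CB lay above isotype by 0.29 on the log2 scale (95% interval 0.03 to 0.54), which did not pass the threshold (unadjusted p = 0.0289, adjusted p = 0.253, edgeR). Stat3 differed by 0.31 between CB and anti-PD-L1 (interval 0.06 to 0.57, edgeR adjusted p = 0.419) and by 0.23 between CB and anti-Lag3 (interval -0.02 to 0.49).

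Stat4, which drives T helper 1 responses to IL-12, lies on chromosome 1 from 51987148 to 52107189 (ENSMUSG00000062939). Its levels were 101, 75.6 and 89.1 CPM in isotype mice and 104, 120 and 101 in CB mice. They were 108, 105 and 84.1 CPM with anti-PD-L1 and 77.2, 95.3 and 101 with anti-Lag3. Neighbouring groups overlapped in the order isotype (88.5 ± 12.6 CPM, SD, n = 3), anti-Lag3 (91.1 ± 12.3), anti-PD-L1 (98.9 ± 13.0) and CB (108 ± 10.2). The CB group was 0.29 above isotype on the log2 scale, with an interval from -0.01 to 0.59 and an edgeR adjusted p of 0.352.

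Stat2, the partner of the interferon regulatory factor IRF9, lies on chromosome 10 from 128270559 to 128292849 (ENSMUSG00000040033). It had 17.8, 13.6 and 15.5 CPM in isotype, 20.9, 22.8 and 10.4 in anti-PD-L1, 21.2, 20.3 and 29.0 in anti-Lag3 and 15.8, 19.1 and 23.6 in CB mice. The anti-Lag3 samples were all above the isotype samples, and the other pairs of groups overlapped. The means were 15.6 ± 2.13 CPM in isotype, 18.0 ± 6.66 in anti-PD-L1, 19.5 ± 3.91 in CB and 23.5 ± 4.78 in anti-Lag3 (SD, n = 3). The difference between anti-Lag3 and isotype was 0.59 on the log2 scale (interval -0.02 to 1.2, edgeR adjusted p = 0.805), and that between CB and isotype was 0.32 (interval -0.29 to 0.93).

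The paralogues Stat5a and Stat5b, neighbours on chromosome 11, transmit IL-2 signals in T cells. Stat5a (from 100859351 to 100885169, ENSMUSG00000004043) had 77.6, 61.9 and 47.5 CPM in isotype mice and 55.8, 61.1 and 73.0 in CB mice. Values were 73.2, 69.8 and 68.2 CPM with anti-PD-L1 and 55.2, 61.7 and 47.7 with anti-Lag3, and only these last groups did not overlap. Their log2 difference was 0.36 (interval 0.01 to 0.71, edgeR adjusted p = 0.802), while CB and isotype differed by 0.02 (interval -0.33 to 0.37). The group means ran from anti-Lag3 (54.9 ± 7.0 CPM, SD, n = 3) through isotype (62.3 ± 15.1) and CB (63.3 ± 8.8) to anti-PD-L1 (70.4 ± 2.56), with overlap between neighbours.

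Stat5b (from 100780731 to 100850724, ENSMUSG00000020919) had 101, 107 and 106 CPM in isotype mice and 99.4, 90.7 and 66.4 in CB mice. It had 87.9, 101 and 100 CPM with anti-PD-L1 and 85.6, 94.9 and 105 with anti-Lag3. The CB samples lay below the isotype samples, although by less than 2 CPM for the nearest pair. The means went up from CB (85.5 ± 17.1 CPM, SD, n = 3) through anti-Lag3 (95.3 ± 9.95) and anti-PD-L1 (96.4 ± 7.4) to isotype (105 ± 3.19), and all neighbours overlapped. The log2 difference between CB and isotype was -0.29 (standard error 0.14, unadjusted p = 0.0497, adjusted p = 0.334, edgeR).

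Other genes overlap or resemble 5 members, which can affect their counts. The gene models of Stat3 and Stat5a overlap by 72 bases at their 3′ ends on opposite strands, which is where 3′ reads fall, and the strand setting of the counting is not given in the sources used here. Stat4 overlaps the pseudogene Gm3940 on the opposite strand by 432 bases, and 201 reads were counted on that gene. Stat4 also overlaps Gm28177 on the same strand by 29929 bases, and Cish overlaps Gm17040 by 1167 and Gm17041 by 1459 bases on the opposite strand, and 0 reads were counted on each of these genes. Stat5a and Stat5b share sequence. The runs of 50 bases in the last 500 bases of their transcripts were compared. Of these, 125 of 1974 in Stat5a and 140 of 902 in Stat5b occur also in the other gene. A read reaching beyond such a run can still map uniquely. Reads that fit both genes equally well are lost when only uniquely mapped reads are counted. What share of the reads this touched was not tested.

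**Figure D2:**
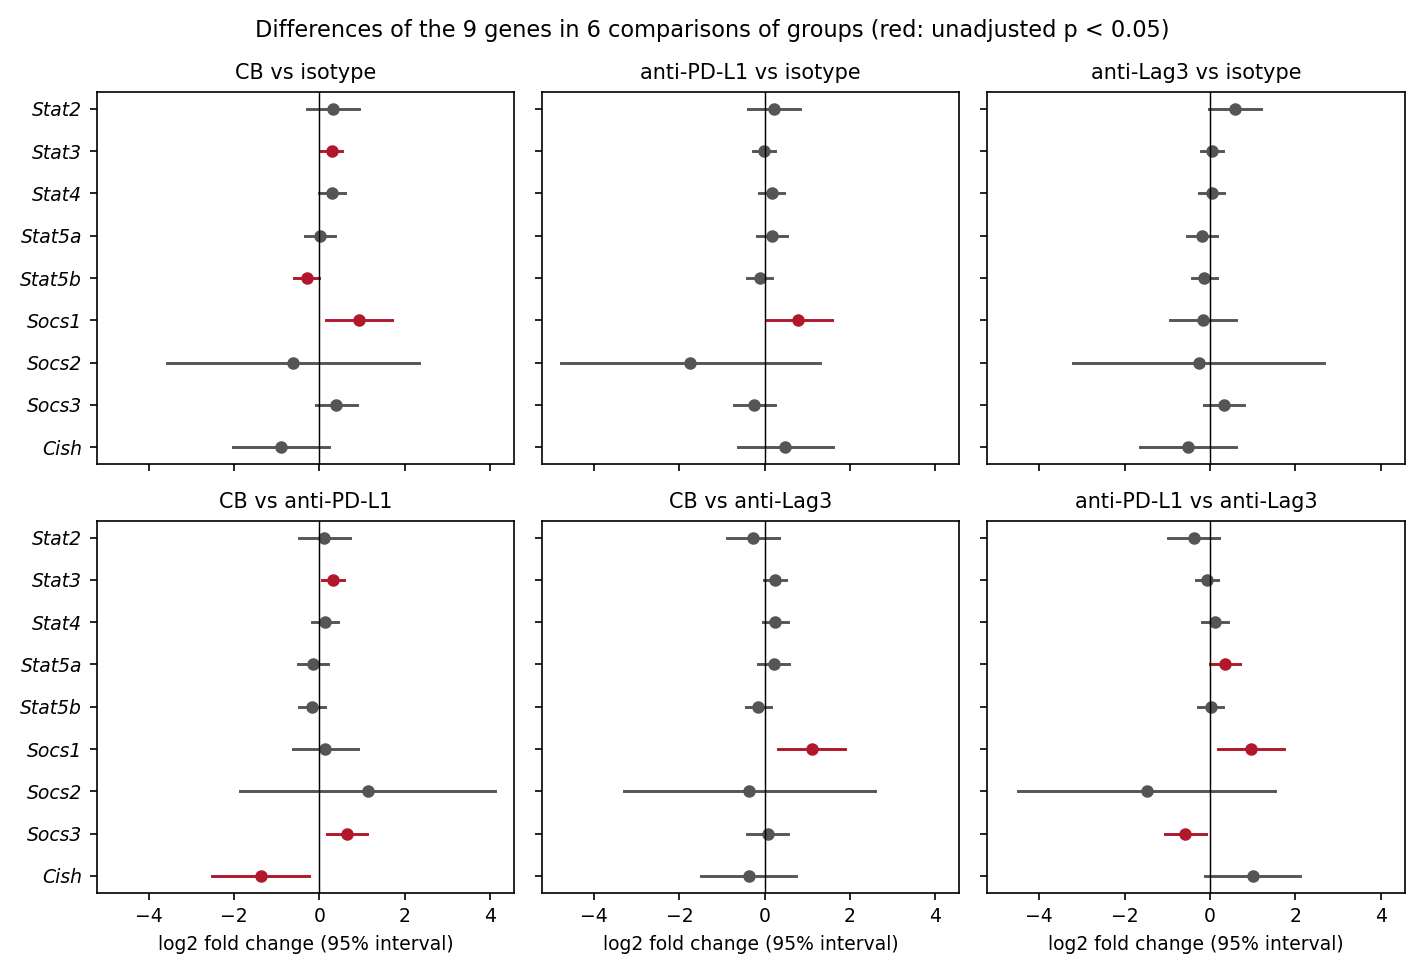
Log2 fold changes of the 9 genes in the 6 comparisons of groups (horizontal axis) with their 95% intervals, from edgeR's fit to all 12 samples. Red marks an unadjusted p under 0.05; none of the values passed the adjusted threshold, and the intervals of Socs2 are the widest.

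Over the 9 genes, the comparison of CB with isotype gave 0 calls by edgeR's quasi-likelihood test and 0 by DESeq2, where edgeR called 4.29% of all genes tested (2.33% higher and 1.96% lower in CB). An unadjusted p under 0.05 was found for 3 members (Stat3, Stat5b and Socs1), against 14.9% of all genes. The samples of the 2 groups did not overlap for 4 members (Stat5b, Socs1, Socs3 and Cish), against 20.0% of all genes. The median log2 fold change of the members was 0.29, with 6 higher and 3 lower, and that of all genes was 0.0. With so few genes, these counts do not set the members apart from the background.

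The other comparisons gave 0 calls among the members by edgeR and by DESeq2 as well. Between anti-PD-L1 and isotype, where edgeR called 0.033% of all genes, 1 member (Socs1) had an unadjusted p under 0.05 against 7.84% of all genes, and 2 members (Socs1 and Socs2) did not overlap against 11.8%. Between anti-Lag3 and isotype edgeR called 0.0% of genes, no member had an unadjusted p under 0.05 (5.21% of all genes did), and Stat2 alone did not overlap against 10.1% of all genes. Between CB and anti-PD-L1 (0.37% of genes called, 0.205% higher and 0.165% lower in CB), 3 members (Stat3, Socs3 and Cish) had such a p against 9.08% of all genes, and 0 were free of overlap against 12.7%. Between CB and anti-Lag3 (0.694% called, 0.39% higher and 0.304% lower), Socs1 alone had such a p against 9.46% of all genes, and it alone did not overlap against 14.8%. Between the single antibodies (0.0% called), 3 members (Stat5a, Socs1 and Socs3) had such a p against 4.69% of all genes, and 2 (Stat5a and Socs1) did not overlap against 8.7%. These comparisons share samples with each other.

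The design also asks whether the combination differed from the sum of the single antibodies. This interaction, CB minus both single antibodies plus isotype on the log2 scale, was called for 0 members by edgeR and by DESeq2 and for 0.0% of all genes by edgeR. None of the members had an unadjusted p under 0.05 in it, against 5.93% of all genes. Its interval ran from -0.79 to 1.4 for Socs1, from -0.35 to 1.0 for Socs3 and from -2.43 to 0.72 for Cish.

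**Figure D3:**
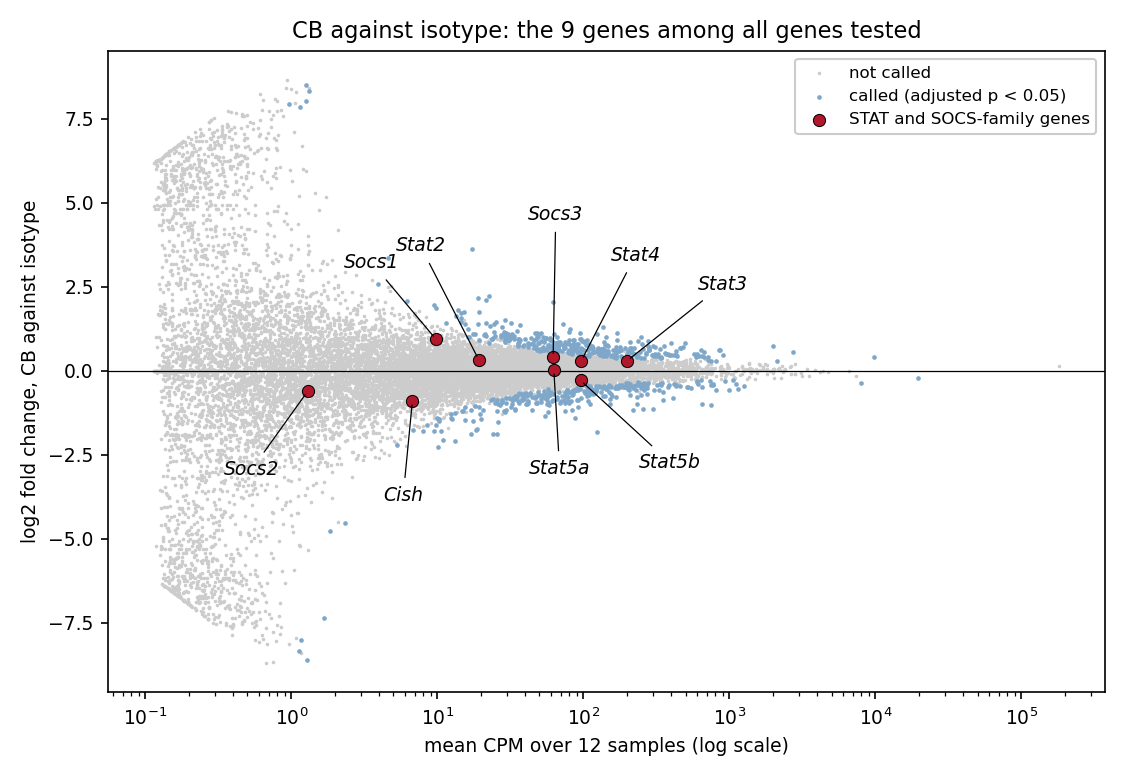
Log2 fold change between CB and isotype against the mean CPM over 12 samples (log axis) for the 15138 genes tested. Grey points are genes not called, blue points the 649 genes called by edgeR, and the 9 red points, all among genes not called, are the STAT and SOCS-family genes.

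The other genes of the pathway were taken from lists of textbook members, and their calls between CB and isotype lay among receptors, cytokines and target genes. Of 22 receptor chains that signal through STATs, 20 were tested and edgeR called 3 higher and 2 lower, with a median log2 fold change of -0.23. Over all genes tested, 2.33% were called higher and 1.96% lower in this comparison, against which the counts of all lists are to be read. The lists were chosen with earlier results of these data known, so a count above these shares is not an independent result. Il21, Maf, Bcl3 and Irf8, which stand in these lists, are among the genes that the paper itself reports as raised by CB. Il2ra, the high-affinity chain of the IL-2 receptor, rose from 21.2 ± 6.14 to 42.2 ± 16.2 CPM (SD, n = 3), a log2 difference of 0.99 (edgeR adjusted p = 0.0288). The chains of the IL-12 receptor rose together, Il12rb1 from 11 ± 0.938 to 22.2 ± 2.46 CPM (1.01, edgeR adjusted p = 0.0332) and Il12rb2 from 7.68 ± 0.665 to 20.6 ± 2.79 CPM (1.42, edgeR adjusted p = 0.0208). Il6st, the gp130 chain to which SOCS3 binds, fell from 97.5 ± 3.24 to 62.0 ± 7.07 CPM (-0.65, edgeR adjusted p = 0.00679), and Ifnar1, a chain of the type I interferon receptor, fell from 33.4 ± 1.39 to 18.1 ± 2.3 CPM (-0.88, edgeR adjusted p = 0.0332).

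Each of these 5 calls was lost without at least 1 of the libraries. The highest edgeR adjusted p was 0.294 for Il2ra (without the third CB mouse; 0.18 without the first isotype mouse, 0.07 without the second CB mouse, and 0.0543 with only the groups compared) and 0.0523 for Il6st (without the first CB mouse). For Il12rb1 it was 0.145 without the first CB mouse, and the call was lost also without the third CB mouse (0.0985) and without each of the isotype mice in turn (0.0793 to 0.115). Il12rb2 lost its call without the second or the third CB mouse (0.0538 and 0.108) or each of the isotype mice in turn (0.0561 to 0.0735). Ifnar1 lost it without the first or the third CB mouse (0.119 and 0.149) or each of the isotype mice in turn (0.0713 to 0.103). Their fold changes kept their direction in all 12 of these fits. DESeq2 against a log2 fold change of 0.2 called none of the 5 (adjusted p from 0.0865 for Il12rb2 to 0.248 for Il2ra).

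Of 19 cytokines that signal through STATs, 8 had enough reads to be tested, and 1 was called between CB and isotype. Il21, which signals through STAT3 and serves follicular helper T cells, rose from 8.04 ± 6.18 to 36.0 ± 2.24 CPM, a log2 difference of 2.16 (edgeR adjusted p = 0.00203). The median of the 8 was 0.29. The 4 JAK kinases gave 0 calls by edgeR, with a median of -0.11, and the lowest p among them belonged to Jak1, at 529 ± 39.6 CPM in CB and 631 ± 49.8 in isotype (-0.26, edgeR adjusted p = 0.123), followed by Jak3 (-0.19). The 6 other STAT and SOCS genes gave 0 calls, with a median of 0.13, and Socs7 (0.23) and Socs6 (0.27) had the lowest p-values.

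The target genes of the STATs gave calls in 1 direction. Of 11 textbook STAT5 targets, edgeR called 2 higher in CB than in isotype: Il2ra and the survival kinase gene Pim2, which rose from 50.9 ± 1.94 to 114 ± 16.1 CPM (1.16, edgeR adjusted p = 2.3e-05). Of 11 STAT3 targets tested, 3 were called higher, namely Il21, the transcription factor gene Maf (0.66, edgeR adjusted p = 0.00363) and Bcl3 (0.77, edgeR adjusted p = 0.00656; 0.0595 without the first isotype mouse). Of 7 STAT4 targets tested, Il12rb2 alone was called. The medians of these lists were 0.12, 0.66 and 0.25. These genes have other regulators as well, and some stand in more than 1 list.

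Interferon response genes are switched on by STAT complexes, and those of the interferon-gamma response had the largest median of the 11 lists. Of 12 genes of the interferon-gamma response, edgeR called 5 higher in CB than in isotype and 0 lower, where 2.33% of all genes were called higher. The median of the 12 was 0.97, and against the same isotype mice it was 0.65 in the anti-Lag3 group and 0.5 in the anti-PD-L1 group. The 5 genes were Irf8 (1.11, adjusted p = 6.84e-05), Gbp2 (1.44, 0.00203), Gbp5 (1.74, 0.000621), Igtp (0.94, 0.000143) and Iigp1 (1.75, 0.00102). Gbp2, Gbp5, Igtp and Iigp1 encode GTPases that act against pathogens inside cells, and Irf8 is a transcription factor that strong T cell receptor signals also induce. Of 15 genes of the type I interferon response, 2 were called higher. The median of the 15 was 0.51 in CB, 0.48 in the anti-Lag3 group and 0.65 in the anti-PD-L1 group, each against isotype. The CB median is the value of Oas1a, which had 252 reads in all samples and an interval from -2.77 to 3.8. It therefore does not show a shared rise of the list. Isg15 rose from 80.4 ± 9.59 to 199 ± 62.9 CPM (1.3, edgeR adjusted p = 0.000194) and Bst2 from 31.5 ± 8.39 to 68.8 ± 16.6 CPM (1.13, edgeR adjusted p = 0.00163). Il21, Pim2, Maf and the 7 interferon response genes kept their calls against isotype in all 12 fits that left out a library. DESeq2 against a log2 fold change of 0.2 called neither Maf (adjusted p = 0.084) nor Bcl3 (0.12).

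Outside the comparison with isotype, edgeR called 2 of these genes. Il12rb2 was higher in CB than in anti-Lag3 by 1.68 on the log2 scale (edgeR adjusted p = 0.0234), and so was Irf8 by 0.8 (edgeR adjusted p = 0.00907). The call of Il12rb2 was lost without the first or the third anti-Lag3 mouse (0.122 and 0.121) or each of the CB mice in turn (0.0576 to 0.146), and that of Irf8 without the third anti-Lag3 mouse (0.0845) or the first or the third CB mouse (0.11 and 0.0566). DESeq2 against a log2 fold change of 0.2 called neither Il12rb2 (adjusted p = 0.059) nor Irf8 (0.182) between CB and anti-Lag3. No gene of the 11 lists was called between CB and anti-PD-L1, between either single antibody and isotype, or between the single antibodies.

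**Figure D4:**
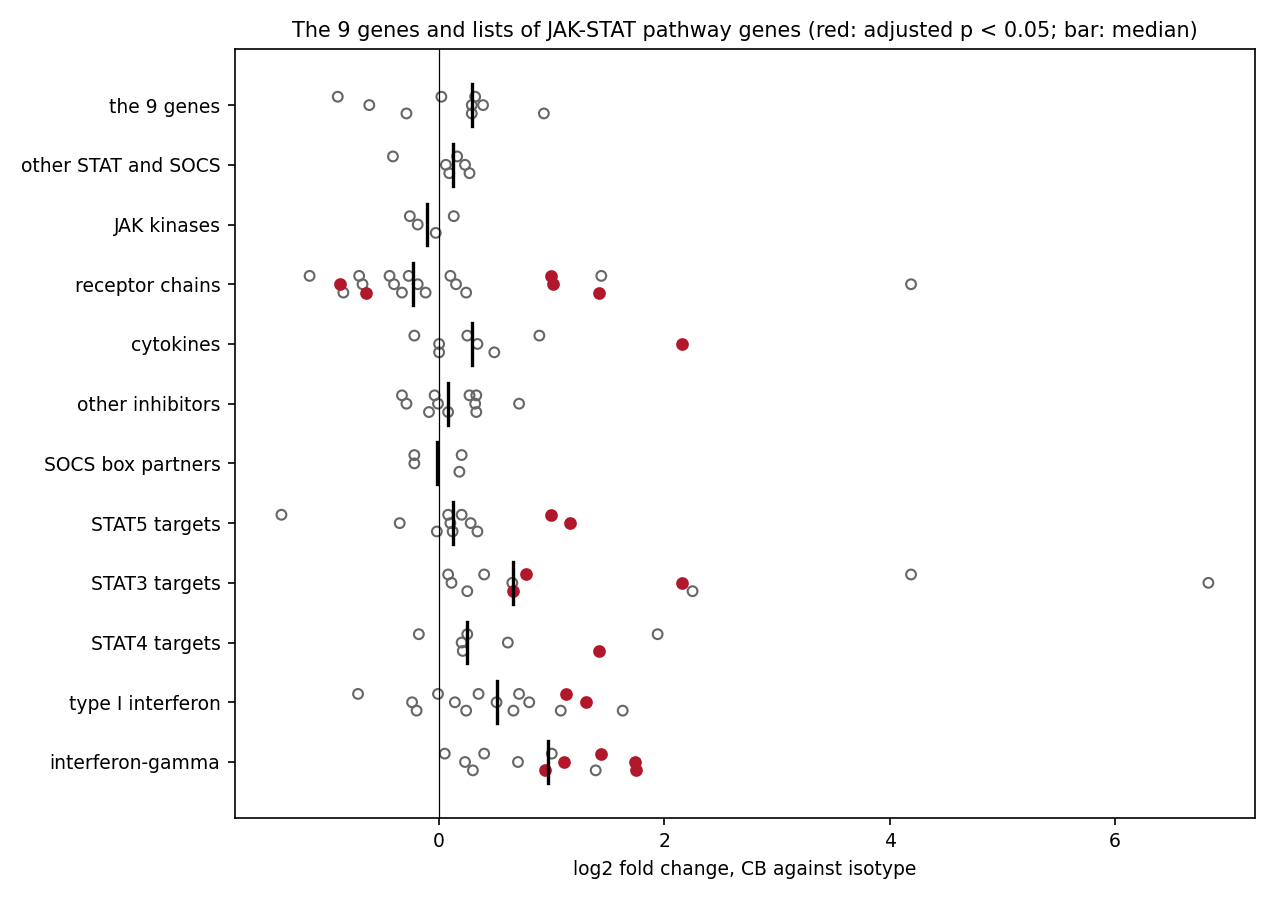
Log2 fold change between CB and isotype for the 9 genes (top row) and for the tested genes of 11 pathway lists. Circles are genes, filled red where edgeR's adjusted p was under 0.05, and black bars are medians, from -0.23 for the receptor chains to 0.97 for the interferon-gamma response genes.

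Some markers of other cells also differed between CB and isotype mice. Of the 7 myeloid and the 4 platelet markers edgeR called 0, and the myeloid sums overlapped (62.5 to 69.7 CPM in isotype and 50.6 to 66.7 in CB mice). The summed CPM of 5 erythroid markers was 222 to 407 in isotype and 143 to 182 in CB mice, and edgeR called 2 of them lower (Hbb-bs by -0.75 and Hbb-bt by -0.99 on the log2 scale), the former not without the first isotype mouse (edgeR adjusted p = 0.0852). Of the 4 NK cell markers, Gzma alone was called lower, at 26.3 ± 7.62 CPM in isotype and 9.37 ± 2.51 in CB mice (log2 difference -1.49). The other NK cell markers were near 0, and Klrb1c stood the other way, at 0.307 ± 0.266 CPM in isotype and 1.43 ± 0.408 in CB mice, without a call. Of the 2 CD8 T cell markers, Cd8b1 was at 42 ± 2.86 CPM in isotype and 29.7 ± 4.2 in CB mice and was not called (edgeR adjusted p = 0.242), and Cd8a was at 0.772 ± 0.722 and 0.402 ± 0.696 CPM, with overlap. The 7 CD4 T cell markers themselves summed to 1930 to 2050 CPM in isotype and 1610 to 1700 in CB mice. Their list includes Nr4a3, the gene that the Timer used for sorting reports. It stood at 31.5 ± 1.91 CPM in isotype and 20.4 ± 9.6 in CB mice, with overlap and without a call. Of the 7, edgeR called Cd4 (-0.5) and Cd3e (-0.39) lower. These last calls were lost without the third CB mouse (edgeR adjusted p = 0.0636 and 0.264) or the second isotype mouse (0.0516 and 0.102), and that of Cd3e also without the third isotype mouse (0.18) or the second CB mouse (0.0829). DESeq2 against a log2 fold change of 0.2 did not call Cd4 (adjusted p = 0.231), Cd3e (0.713) or Hbb-bs (0.0792). The part of these markers in the values of Socs1, Socs3, Cish and Stat5b was not tested.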

How the data were processed

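RNA of sorted splenic CD4+ T cells was made into QuantSeq 3′ libraries without molecular identifiers, 1 per mouse, each sequenced on 4 lanes. The authors trimmed reads with Cutadapt 1.18, mapped them to GRCm38 with STAR 2.6.1a and deposited raw counts of uniquely mapped reads per gene from featureCounts 1.6.4, without normalization. The annotation release and the strand setting are not given in the sources used here. A second deposited table of rlog values was not used. The 114 spike-in rows (0.719% to 1.29% of counts per sample) were left out. Symbols and coordinates came from GENCODE for GRCm38, which held 52073 of 56691 genes.

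Samples were grouped by their labels. Genes with at least 30 reads in sum were tested in R 4.3.3 by edgeR 4.0.16, which draws on limma 3.58.1 (TMM, 4 group means, quasi-likelihood tests, Benjamini-Hochberg adjustment over 15138 genes, prior count 0.125 for fold changes). The 7 comparisons were the 6 pairs of groups and the interaction. Alternatives were DESeq2 1.42.0 against 0 and against a log2 fold change of 0.2, its size factors in edgeR, a fit of only the 2 groups compared, a replicate block, filterByExpr or no filter, and each library left out. The fit was tested on simulated data. Replicates differed by more than sampling noise, so none was counted as a duplicate. Intervals and p-values rest on 1 estimate of spread per gene, shared by the 4 groups of 3 mice and moderated across genes. They do not measure the spread within the groups compared alone. PCR copies cannot be told from separate molecules.

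The members and lists were chosen with earlier results of these data known. All members are named. From each pathway list the genes called in any pair of groups are named, or otherwise the 2 with the lowest p between CB and isotype. Oas1a is named in addition, as the median of its list. Genes of like pattern were to be sought for called members only, so none is given. Markers named are those called and, in addition, Cst3, Cd8b1, Cd8a, Klrb1c and Nr4a3, which were not called. The list of B cell markers is not reported here. Promoters were read from a RefSeq table (GRCm38.p6).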

Additional observations from a re-analysis of the deposited data

How the results depend on the processing

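No member was called under any alternative except Socs3 between CB and anti-PD-L1. There the count of members called was 1 with no filter on low counts (adjusted p = 0.0193) and 1 with the replicate block (log2 difference 0.74, adjusted p = 0.0289), and 0 to 1 when a library was left out, all by edgeR. The replicate numbers are not stated to mark shared litters or sorts. Same-numbered samples of different groups had correlations of -0.0428 to 0.0503 between their deviations from the group means (18 pairs), and other pairs -0.0748 to 0.0409. Of the 12 samples, 9 correlated best with their own number. The cells were sorted in batches of 4, and the paper's principal component analysis showed variation that it attributes largely to the sorting batches. Which samples shared a batch is not given, so whether the numbers mark batches cannot be told. Genes called under the block were 843 between CB and isotype, 137 between CB and anti-PD-L1, 208 between CB and anti-Lag3, 23 between anti-PD-L1 and isotype, 9 between anti-Lag3 and isotype and 4 in the interaction. Of the other alternatives, DESeq2 against 0 called 56 genes between anti-PD-L1 and isotype, 9 between anti-Lag3 and isotype, 178 between CB and anti-PD-L1, 280 between CB and anti-Lag3, 10 between the single antibodies and 5 in the interaction. Against a log2 fold change of 0.2, DESeq2 called 233 between CB and isotype and, in the order just given, 11, 2, 18, 41, 8 and 2. With no filter these counts were 40, 14, 150, 252, 2 and 10. With only the groups compared they were 3 between anti-PD-L1 and isotype, 4 between CB and anti-PD-L1 and 1 between the single antibodies. The count under the usual settings was 649 between CB and isotype, then 5, 0, 56, 105, 0 and 0. Leaving out a library gave 394 to 705 between CB and isotype, then 0 to 10, 0 to 1, 4 to 57, 42 to 125, 0 to 1 and 0 to 2. The count between CB and isotype moved by over 1.5 times without isotype replicate 1 (405), CB replicate 1 (421) or CB replicate 3 (394). That between CB and anti-PD-L1 did so without anti-PD-L1 replicate 1 (30), 2 (5) or 3 (35) and CB replicate 1 (15), 2 (31) or 3 (4). That between CB and anti-Lag3 did so without anti-Lag3 replicate 2 (51) or 3 (45) and CB replicate 1 (44) or 3 (42). That between anti-PD-L1 and isotype did so without isotype replicate 1 (1), 2 (0) or 3 (8) and anti-PD-L1 replicate 2 (2) or 3 (10). A single gene was called without isotype replicate 3 between anti-Lag3 and isotype and without anti-PD-L1 replicate 3 between the single antibodies, and 2 without isotype replicate 3 in the interaction. The cause was not tested.

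The direction of 6 member differences turned when a library was left out. Log2 differences then ran from -0.14 to 0.21 for Stat5a between CB and isotype, where leaving out isotype replicate 3 gave -0.14 and CB replicate 3 gave -0.09. They ran from -0.31 to 0.03 for Socs1 between anti-Lag3 and isotype (0.03 without anti-Lag3 replicate 2), from -0.02 to 0.45 for Socs1 between CB and anti-PD-L1 (-0.02 without anti-PD-L1 replicate 2), from -0.7 to 0.04 for Socs3 between anti-PD-L1 and isotype (0.04 without anti-PD-L1 replicate 1), from -0.06 to 0.14 for Socs3 between CB and anti-Lag3 (-0.06 without anti-Lag3 replicate 1), and from -0.74 to 0.0 for Cish between CB and anti-Lag3 (0.0 without anti-Lag3 replicate 3). Of 988 values of 52 fold changes under the alternatives, 929 kept direction and side of the threshold, 49 lost the call, 3 gained it (Socs3) and 7 turned. Socs2 had the fewest reads, 3 to 53 per sample.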

Other observations

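Among inhibitors of the pathway outside the SOCS family (11 genes of the PIAS proteins, phosphatases, Sh2b3 and Usp18), edgeR called 0 between CB and isotype, and their median log2 fold change was 0.08. The lowest p belonged to Ptpn1, a phosphatase that acts on JAK kinases, at 383 ± 24.7 CPM in CB and 304 ± 16.2 in isotype mice (SD, n = 3), a log2 difference of 0.33 (95% interval 0.13 to 0.54, edgeR adjusted p = 0.0532). Usp18, which blocks the type I interferon receptor, stood at 27.9 ± 4.77 and 17.1 ± 1.63 CPM, a difference of 0.71 (interval 0.09 to 1.33, edgeR adjusted p = 0.242). Samples of the groups did not overlap for either gene.

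The partners with which the SOCS box forms a ubiquitin ligase gave 0 calls among 4 genes by edgeR, with a median of -0.02. Elob was at 236 ± 23.8 CPM in CB and 275 ± 7.39 in isotype mice (-0.22, interval -0.44 to -0.01, edgeR adjusted p = 0.305), and Eloc at 171 ± 7.64 and 151 ± 13.0 CPM (0.18, interval -0.09 to 0.46).

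Il23r, a receptor chain that signals through STAT3 and was chosen for mention after its values were seen, stood at 6.51 ± 3.23 CPM in CB and 0.349 ± 0.406 in isotype mice. Its log2 difference of 4.19 had an interval from 0.98 to 7.39 and did not pass the threshold (edgeR adjusted p = 0.154).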
